A study of Mus musculus with 8 samples.

Results

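The genes described here encode the proteins of the mitochondrial ribosome, named Mrpl for the large subunit and Mrps for the small subunit. They were chosen by symbol alone: Mrpl or Mrps followed by a number, leaving out symbols that end in -ps. The rule found 76 of 23235 genes in the table, 47 named Mrpl and 29 named Mrps. Counts and medians of the large and small subunit go by these symbols, which do not place every protein in its subunit. No pseudogene row had to be left out. RNA was measured in granulosa cells, the somatic cells that surround and feed the oocyte in a follicle, from ovaries of C57BL/6 females. The genotypes were wild type, WT, and a knockout of CNOT6/6L, KO. Cells of each were untreated (0 h) or treated with PMSG for 44 h, which makes 4 groups of 2 libraries, and values are given in replicate order. PMSG is a gonadotropin given to female mice to drive follicle growth. CNOT6 and CNOT6L are deadenylase subunits of the CCR4-NOT complex, which shortens the poly(A) tails of mRNA. By their labels all groups shared the strain, the sex and the tissue, and only the labelled genotype and PMSG treatment differed between them. The labels name the knockout as a double knockout of Cnot6 and Cnot6l and give no allele, Cre driver, age or PMSG dose. They do not say whether the replicates came from separate animals, so the p-values reflect a spread between libraries that may be only technical.

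The mitochondrial ribosome translates the few mRNAs made from the mitochondrial genome, and those mRNAs code for core subunits of the respiratory chain and ATP synthase. All of its proteins are encoded in the nucleus, made in the cytosol and imported, whereas its rRNA is made in the organelle. Some of its proteins have bacterial counterparts, and others exist only in mitochondria. Granulosa cells start steroid synthesis inside mitochondria, at the step that cleaves the side chain of cholesterol.

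Values are FPKM, fragments scaled to transcript length and library size, so levels may be compared between genes. The libraries held FPKM sums of 675557 to 753216 and relative depths of 0.904 to 1.25, where 1 is the median library. Granulosa markers summed to between 12915 and 29832 FPKM in the libraries. Oocyte markers (Gdf9, Bmp15 and zona proteins among 12 genes) were also present, at 799 to 831 FPKM in treated WT and 3705 to 4175 in untreated KO. The KO 44 h libraries stood apart from each other. Relative to untreated WT the median of the cytosolic ribosomal protein genes was 0.32 (log2) in replicate 1 and -0.48 in replicate 2, against -0.18 to 0.03 in the other libraries, and 80 of 83 of them were higher in replicate 1. Replicate 2 was the deepest library, at 1.25 against 1.00. Its summed surface epithelium markers were 399 against 128 FPKM, and its oviduct and ciliated markers 362 against 9.10 FPKM. The oviduct and ciliated markers also differed between the treated WT libraries, at 384 and 14.5 FPKM. Among these markers Ovgp1 was 366 and 6.05 FPKM in treated WT and 3.04 and 279 in treated KO. In untreated KO, immune markers summed to 806 and 145 FPKM and erythroid markers to 952 and 108 FPKM in the replicates. Erythroid markers also differed between the untreated WT libraries, at 686 and 98.9 FPKM. The part of these differences in the results was not tested. In the library labelled KO 44 h replicate 1 the Cnot6 level was 26.7 FPKM, against 17.4 in replicate 2 and 26.0 and 26.9 in treated WT, so the targeted gene was not lower in that library. Cnot6l was 2.01 FPKM in it, 1.61 in replicate 2 and 4.20 and 2.63 in treated WT.

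All 76 genes were above 0 in every library, and all passed the filter on low values (at least 1 FPKM in at least 2 libraries). In every library 75 of them exceeded 10 FPKM, and the lowest single value was 9.63 FPKM, for Mrps25 in WT 44 h replicate 2. The median of their mean levels was 101 FPKM, against 10.3 FPKM over the 13688 genes tested. The subunits lay close together, with a median of 103 FPKM for the large and 99.3 FPKM for the small subunit. As a group they took 1.30% to 1.47% of all FPKM in each library. Their order hardly moved between libraries: Spearman's rho of the 76 levels was 0.933 to 0.993 over the library pairs, as a description across genes that share each library.

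Levels within the family differed far more than levels between conditions. The highest mean was 63.9 times the lowest. Mrpl33, the counterpart of bacterial L33, was the most abundant, at 761 and 593 FPKM in untreated WT, 973 and 927 in treated WT, 602 and 664 in untreated KO, and 983 and 865 in treated KO. Mrps21, the counterpart of bacterial S21, came next with a mean of 777 FPKM. Mrpl33 and Mrps21 did not differ beyond their spread, whose ranges were 593 to 983 and 647 to 1054 FPKM. Mrpl42, a protein known only in mitochondria, followed at 349 to 483 FPKM and did not overlap the ranges of those genes. Mrps18c (239 to 418 FPKM) and Mrpl23 (230 to 356 FPKM), whose bacterial counterpart lies beside the exit tunnel, overlapped each other and Mrpl42.

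At the low end stood Mrps25, a mitochondria-specific protein of the small subunit, at 11.8 and 13.9 FPKM in untreated WT, 10.2 and 9.63 in treated WT, 15.0 and 15.9 in untreated KO, and 11.4 and 11.8 in treated KO. Mrpl19 had a mean of 16.1 FPKM, and its range of 13.8 to 18.2 FPKM overlapped that of Mrps25. Mrpl17, Mrpl11 and Mrpl1 had means of 22.2, 23.2 and 23.5 FPKM and overlapped one another. Mrpl1 and Mrpl11 are counterparts of bacterial stalk proteins. Shorter genes were the more abundant ones: coding lengths ran from 195 bases for Mrpl33 to 1326 bases for Mrps30, and Spearman's rho of coding length with mean FPKM was -0.51 over the 76 genes, a description across genes measured in the same libraries. FPKM are divided by length, and the part of that division in the relation was not tested.

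The paralogs of Mrps18 sit in different subunits although they share a name: Mrps18a is a protein of the large subunit, Mrps18b and Mrps18c of the small subunit. All of them are counted with the small subunit here, by symbol. Their means were 176, 97.5 and 318 FPKM. Mrps18a was the steadiest of them, between 161 and 199 FPKM, a ratio of 1.23. Mrps18b and Mrps18c each had their highest value in the library labelled KO 44 h replicate 1, at 132 and 418 FPKM, against 79.5 and 299 FPKM in replicate 2. Mrps36, kept here by its symbol, is now known as a protein of the alpha-ketoglutarate dehydrogenase complex; it lay between 133 and 172 FPKM.

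**Figure D1:**
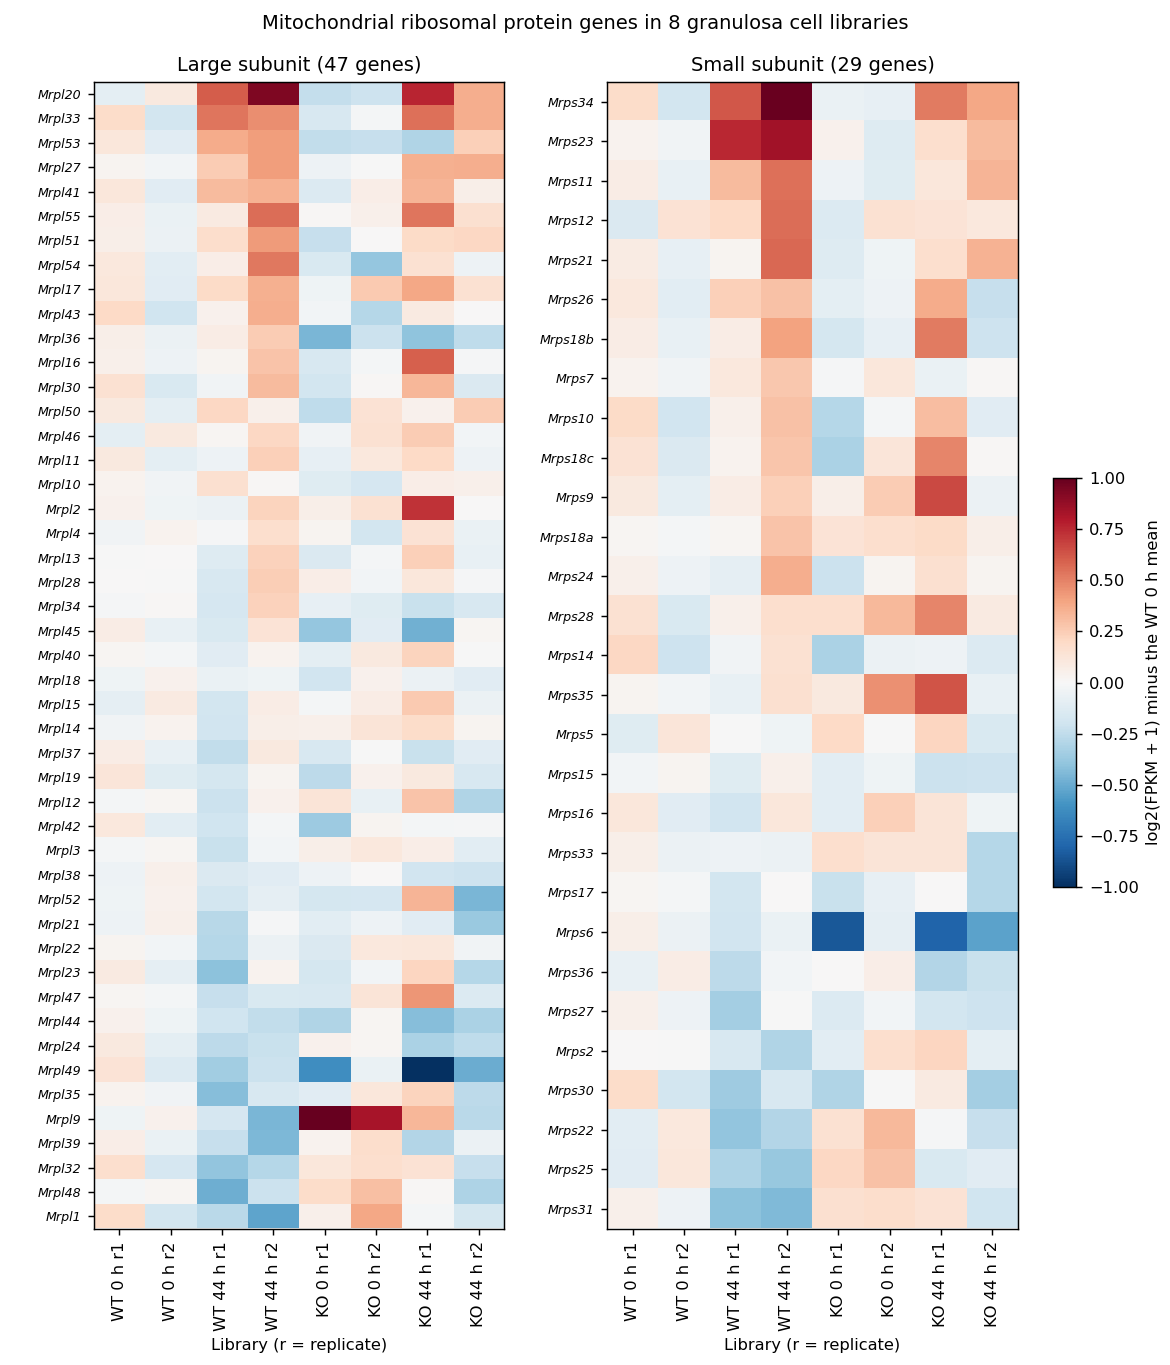
Each row is a mitochondrial ribosomal protein gene and each column a library, coloured by log2(FPKM + 1) minus the mean of the WT 0 h libraries, with colours capped at 1 and -1. Genes are sorted by the WT difference after PMSG. Most of the map is pale. Mrpl20, Mrps34 and Mrps23 are darkest at the top under WT 44 h, and Mrpl9 is the only dark red row under KO 0 h.

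Levels were steady over the 8 libraries. The highest value was under 2 times the lowest for 72 of 76 genes, and the median of that ratio was 1.49. The SD of log2(FPKM + 1) over all libraries had a median of 0.20 for the family, against 0.31 over all genes tested. These sets were not matched for level, with medians of 101 and 10.3 FPKM. Between replicates, cytosolic ribosomal protein genes had smaller median log2 distances than the family in 3 groups. They were 0.08 against 0.14 in untreated WT, 0.17 against 0.21 in treated WT and 0.09 against 0.16 in untreated KO. In treated KO they were larger, at 0.77 against 0.23. The 4 genes whose highest value was over 2 times the lowest were Mrpl9 (2.88), Mrpl20 (2.27), Mrpl49 (2.27) and Mrps34 (2.27). Those genes, with Mrps23 at 1.98, carry most of what follows.

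The first question was what PMSG did to the family. Differences are of log2(FPKM + 1), tested with limma in a model of the 4 groups fitted to all 8 libraries and adjusted by Benjamini-Hochberg over the 13688 genes, and a gene was called at an adjusted p under 0.05. In WT, 0 of 76 were called, and 7 had an unadjusted p under 0.05 (3301 of 13688 over all genes). The test called 0.0804% of all genes. In KO, 0 of 76 were called as well, against 0.139% of all genes, and 5 had an unadjusted p under 0.05 (2884 over all genes). The family's median difference was 0.01 in WT, with 38 genes higher and 38 lower, and 0.06 in KO, with 47 higher. Over all genes the medians were -0.13 and -0.11, with 38.0% and 39.3% of genes higher. Summed markers of other cells differed between the times as well: theca and stroma markers (8 genes, all above 0 in every library) were at 64.5 and 72.6 FPKM in WT before PMSG and at 258 and 217 after it, and oocyte markers at 1521 and 2546 before and 831 and 799 after. Their part in the differences given here was not tested. Scaling by the median of ratios moves the median of all genes to -0.01 and 0.03, and the family then had medians of 0.15 (56 higher) and 0.21 (60 higher). Without the library labelled KO 44 h replicate 1 the family's KO median was -0.06, with 28 genes higher, and without replicate 2 it was 0.19, with 52 higher.

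Some genes of each subunit lay higher at 44 h with no overlap between the libraries at 0 h and 44 h. In WT 16 genes (21.1%) were higher without overlap and 19 lower, where the same held for 22.5% and 40.6% of all genes. In KO the counts were 14 (18.4%) and 16 (21.1%), where it held for 14.3% and 34.1% of all genes. The shares of higher genes were thus near those of all genes, and the shares of lower genes were below them. The genes with the smallest p in the higher direction were Mrps23, Mrps34 and Mrpl20 in WT and Mrpl20, Mrpl33 and Mrpl27 in KO. Mrps11 was next in WT and was chosen after its values were seen.

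The promoters of 5 of these genes and of Mrpl9, whose levels are given further on, are shown because these genes had among the smallest p after PMSG and Mrpl9 had the largest difference between genotypes. Each line is the 150 bases before the annotated start, 5′ to 3′ on the plus strand, from RefSeq in build GRCm38.p6. No entry was found for Mrps34. Capitals mark matches, on either strand, to short motifs of factors known for promoters of nuclear-encoded mitochondrial genes: CCGGAAG for the ETS family with GABPA, CATGCGC for NRF1, AAGATGG for YY1 and CCAAT for NFY.
Mrps23, chr11:88204238-88204387: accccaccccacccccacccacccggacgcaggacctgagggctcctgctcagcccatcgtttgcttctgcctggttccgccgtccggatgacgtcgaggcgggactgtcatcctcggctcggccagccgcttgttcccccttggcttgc
Mrpl20, chr4:155802728-155802877: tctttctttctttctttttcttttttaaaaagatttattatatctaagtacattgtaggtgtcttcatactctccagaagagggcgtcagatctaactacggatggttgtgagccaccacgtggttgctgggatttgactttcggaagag
Mrpl33, chr5:31613801-31613950: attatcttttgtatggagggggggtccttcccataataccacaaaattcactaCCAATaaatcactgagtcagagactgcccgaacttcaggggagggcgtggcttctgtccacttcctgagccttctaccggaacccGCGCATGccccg
Mrpl27, chr11:94653641-94653790: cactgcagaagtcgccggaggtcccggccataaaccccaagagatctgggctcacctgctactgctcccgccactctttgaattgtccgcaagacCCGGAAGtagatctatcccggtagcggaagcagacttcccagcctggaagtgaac
Mrps11, chr7:78782981-78783130: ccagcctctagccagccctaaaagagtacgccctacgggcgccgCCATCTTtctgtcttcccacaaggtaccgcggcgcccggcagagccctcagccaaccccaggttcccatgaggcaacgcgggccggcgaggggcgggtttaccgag
Mrpl9, chr3:94443186-94443335: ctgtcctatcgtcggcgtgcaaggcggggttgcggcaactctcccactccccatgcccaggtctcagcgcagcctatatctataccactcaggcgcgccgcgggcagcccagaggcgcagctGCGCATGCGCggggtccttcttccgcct
The stretches of Mrps23 and Mrpl20 held none of these letters. That of Mrpl33 held CCAAT and, near its end, the NRF1 motif on the minus strand. An ETS match of Mrpl33 on the plus strand starts 3 bases before the start and runs past the end of the printed stretch, so it is not in capitals. Mrpl27 had the ETS motif and Mrps11 the YY1 motif on the minus strand. In Mrpl9 the NRF1 motif occurred on both strands, as a single palindromic run in which the matches overlap.

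Mrps23, a small subunit protein known only in mitochondria, was 44.9 and 42.7 FPKM in untreated WT against 74.5 and 79.1 in treated WT. It was 45.3 and 39.9 FPKM in untreated KO against 49.2 and 54.7 in treated KO. All 4 libraries at 44 h lay above all 4 at 0 h, and the WT libraries at 44 h lay above both KO libraries. The difference after PMSG was 0.80 in WT (SE 0.144, limma adjusted p = 0.0813) and 0.28 in KO (SE 0.144, adjusted p = 0.309). The difference between those differences was -0.51 (SE 0.203), with an unadjusted p of 0.0394 from limma and an adjusted p of 0.9999. Genotype differed by -0.56 at 44 h (SE 0.144, adjusted p = 0.467) and by -0.04 at 0 h.

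Mrps34, also mitochondria-specific and needed for a stable small subunit, was 88.7 and 68.3 FPKM in untreated WT against 120 and 155 in treated WT, and 74.5 and 73.5 in untreated KO against 112 and 102 in treated KO. Libraries at 44 h lay above those at 0 h in both genotypes. The differences were 0.80 in WT (SE 0.189, limma adjusted p = 0.104) and 0.53 in KO (adjusted p = 0.179). The gene overlaps Nme3 and Mapk8ip3 in the annotation and faces Eme2 head to head, and the kits named in the labels do not keep strand, so reads of overlapping genes could not be told apart. Nme3 was 39.0 to 61.6 FPKM over the libraries, and its ranges at 0 h and 44 h overlapped in both genotypes. Mapk8ip3 (1.89 to 3.93 FPKM) and Eme2 (3.85 to 11.9 FPKM) were far lower than Mrps34.

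Mrpl20, the counterpart of a bacterial assembly protein of the large subunit, was 114 and 130 FPKM in untreated WT against 186 and 234 in treated WT. It was 103 and 105 FPKM in untreated KO against 207 and 157 in treated KO. The genotypes were close in this gene: the difference after PMSG was 0.77 in WT (SE 0.193, limma adjusted p = 0.109) and 0.78 in KO (SE 0.193, adjusted p = 0.114). No other protein-coding gene overlapped it.

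Mrpl33, with the levels given above, had no overlap between times, and its differences were 0.50 in WT (SE 0.184, limma adjusted p = 0.168) and 0.54 in KO (adjusted p = 0.166). Mrpl27, whose bacterial counterpart reaches toward the peptidyl transferase centre, was 135 and 130 FPKM in untreated WT against 158 and 177 in treated WT, and 127 and 132 in untreated KO against 170 and 170 in treated KO. The libraries within each KO group were close in Mrpl27, and the times did not overlap. Its differences were 0.34 in WT (SE 0.133, adjusted p = 0.184) and 0.39 in KO (adjusted p = 0.168). Mrps11, on the platform of the small subunit, was 89.9 and 81.4 FPKM in untreated WT against 107 and 126 in treated WT, and 82.8 and 78.6 in untreated KO against 92.6 and 108 in treated KO. It differed by 0.43 in WT (adjusted p = 0.163) and 0.31 in KO (adjusted p = 0.309). Mrps11 and Mrpl46 overlap head to head. Mrpl46, a large subunit protein, differed by 0.12 and 0.05, and its ranges at the 2 times overlapped in both genotypes.

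The calls in WT depended on the KO libraries at 44 h, which share the estimate of the spread. Without the library labelled KO 44 h replicate 1, limma called 3 of 76 genes, each higher at 44 h in WT: Mrps23 (adjusted p = 0.0220), Mrpl20 (0.0345) and Mrps34 (0.0443). That fit called 9.74% of all genes. Without KO 44 h replicate 2 instead, treated KO again held 1 library, which adds nothing to the estimate of the spread. The WT differences of Mrps23, Mrpl20 and Mrps34 (0.80, 0.77 and 0.80) were then the same by construction. That fit is therefore not a second check of these 3 genes. With only the WT groups fitted, Mrps23 alone was called (adjusted p = 0.0299), beside 6.9% of all genes. With only the KO groups fitted, 0 of 76 were called, beside 0.0658% of all genes. The family's share called was 3.95% without KO 44 h replicate 1 and 1.32% with only the WT groups, below the share of all genes in each of those fits.

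**Figure D2:**
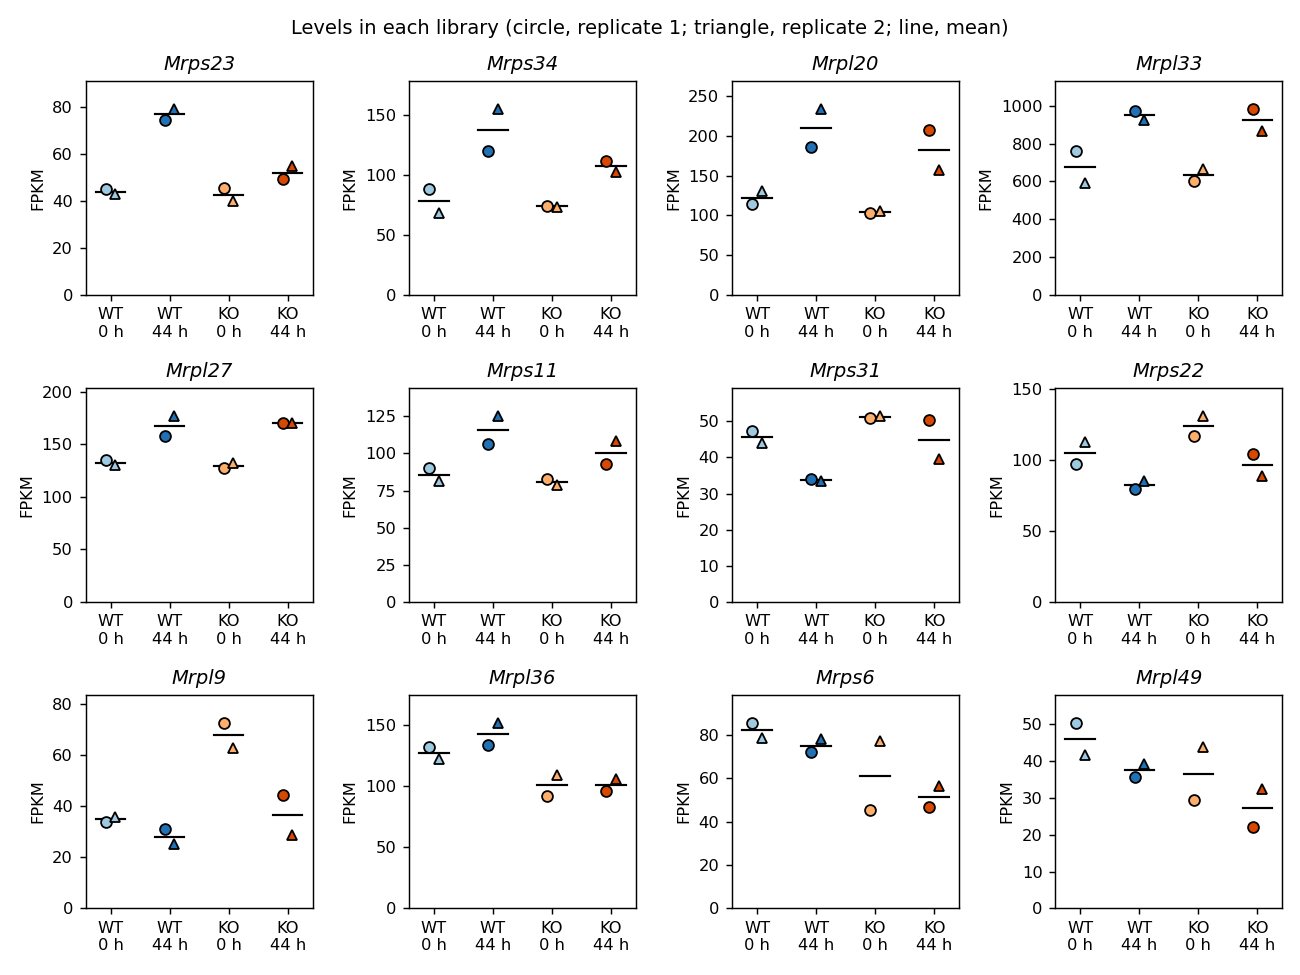
FPKM of 12 mitochondrial ribosomal protein genes in each library, by group, on linear axes from 0; circles are replicate 1, triangles replicate 2 and lines the mean of both. Mrps23 is highest in treated WT, at 74.5 and 79.1, Mrpl20 and Mrpl33 are higher at 44 h in both genotypes, and Mrpl9 stands at 72.8 and 62.8 in untreated KO.

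In the other direction the smallest p in WT belonged to Mrps31, Mrps22 and Mrpl39. Mrps31, a mitochondria-specific small subunit protein, was 47.2 and 43.9 FPKM in untreated WT against 34.1 and 33.3 in treated WT, and 50.9 and 51.6 in untreated KO against 50.4 and 39.5 in treated KO. The WT libraries at 44 h were the lowest of all. The difference was -0.42 in WT (SE 0.160, limma adjusted p = 0.173) and -0.20 in KO (adjusted p = 0.513). Mrps22, a small subunit protein whose loss in humans is known from mitochondrial disease and from primary ovarian insufficiency, was 97.3 and 113 FPKM in untreated WT against 79.6 and 85.6 in treated WT, and 117 and 131 in untreated KO against 104 and 89.1 in treated KO. Times did not overlap in either genotype, and the differences were -0.34 and -0.36 (SE 0.157, adjusted p = 0.237 and 0.246). Mrpl39 differed by -0.34 in WT and -0.28 in KO. In KO the smallest p in this direction were those of Mrpl9, Mrps25 (-0.39) and Mrpl24 (-0.32), none of them called.

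The differences after PMSG had the same sign in WT and KO for 59 of 76 genes, 34 higher in both and 25 lower in both. Pearson's r was 0.80 and Spearman's rho 0.81 over the 76 genes, in comparisons that share no library. Over all genes tested r was 0.61 and rho 0.74, and 79.8% had the same sign, so the family's share of 77.6% was near that of all genes. Genes measured in the same libraries are not independent, so this is a description.

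**Figure D3:**
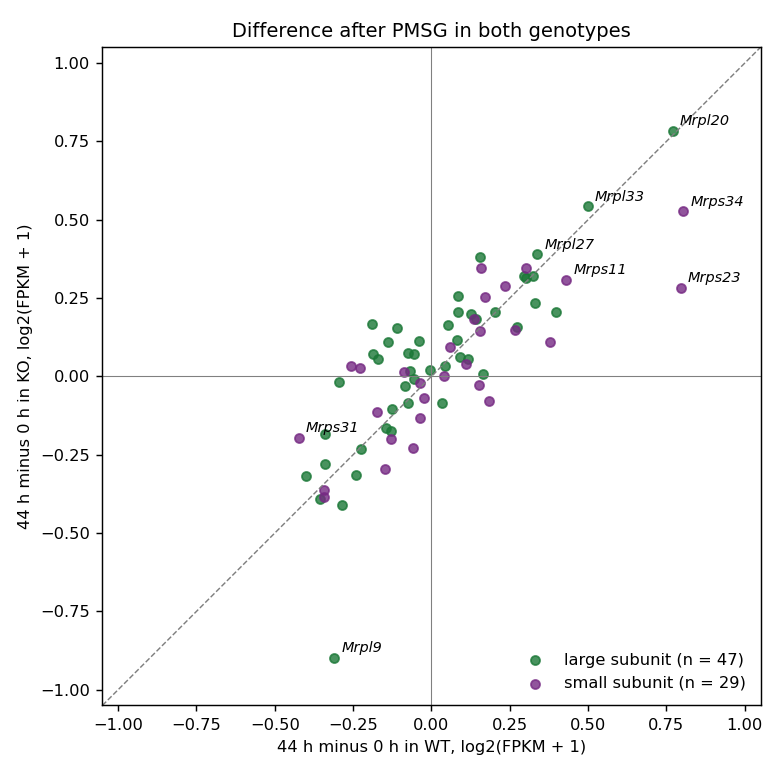
Each point is a mitochondrial ribosomal protein gene, with the difference between 44 h and 0 h in WT on the x axis and in KO on the y axis, both of log2(FPKM + 1); the dashed line marks equal differences. Mrpl20 lies on the line at 0.77 and 0.78, Mrps23 below it at 0.80 and 0.28, and Mrpl9 far below it at -0.31 and -0.90.

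The interaction called 0 of 76 genes with limma, against 0.0438% of all genes, and 1 gene, Mrps23, had an unadjusted p under 0.05 (249 over all genes). After Mrps23 the smallest p with a lower value in KO belonged to Mrpl9 (-0.59, SE 0.321; -0.89 without KO 44 h replicate 1 and -0.29 without replicate 2) and Mrps7 (-0.26), a counterpart of the bacterial protein that organises the head of the small subunit. In the other direction they belonged to Mrpl47 (0.36), Mrps2 (0.25) and Mrps31 (0.23). All of these had a limma adjusted p of 0.9999. Without the library labelled KO 44 h replicate 1 those values were 0.07, 0.10 and 0.06, and without replicate 2 they were 0.65, 0.41 and 0.40.

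The second question was what the loss of CNOT6 and CNOT6L did to the family. At 0 h limma called 0 of 76 genes, against 0.0365% of all genes, and 1 gene had an unadjusted p under 0.05 (1326 over all genes). The median difference between KO and WT was -0.05, with 31 genes higher, against 0.03 over all genes. It was 0.01 without WT 0 h replicate 1 and 0.02 without KO 0 h replicate 1, so its sign rested on single libraries. With no overlap between genotypes, 12 genes (15.8%) were higher and 14 (18.4%) lower, where the same held for 27.3% and 19.1% of all genes. At 44 h 0 of 76 were called, against 0.0219% of all genes, and 3 had an unadjusted p under 0.05 (1340 over all genes). The median at 44 h was -0.02, against 0.05 over all genes, and it was -0.10 without the library labelled KO 44 h replicate 1 and 0.10 without replicate 2. Without overlap 8 genes were higher and 12 lower at 44 h, where the same held for 23.9% and 15.1% of all genes.

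Mrpl9 had the largest difference between genotypes. The protein is the counterpart of the elongated bacterial L9. It was 33.9 and 36.0 FPKM in untreated WT, 72.8 and 62.8 in untreated KO, 31.0 and 25.3 in treated WT, and 44.3 and 28.9 in treated KO. Both KO libraries at 0 h lay above all 6 others, and at 44 h the genotypes overlapped. The difference was 0.93 at 0 h (SE 0.227, limma adjusted p = 0.360) and 0.35 at 44 h (adjusted p = 0.620). After PMSG the gene differed by -0.90 in KO (SE 0.227, adjusted p = 0.116) and by -0.31 in WT (adjusted p = 0.434). Without the library labelled KO 44 h replicate 1, Mrpl9 was the single member called in KO, at -1.20 (SE 0.194, limma adjusted p = 0.0216), in a fit that called 8.54% of all genes. Treated KO is then 1 library, at 28.9 FPKM, and is assumed to vary like the other groups. Without replicate 2, where 44.3 FPKM remains, the difference was -0.60 and Mrpl9 was not called (adjusted p = 0.170).

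Oocyte transcripts were, like Mrpl9, highest in untreated KO and lowest in treated WT. All 12 oocyte markers were above 0 in every library, and their levels summed to 1521 and 2546 FPKM in untreated WT, 4175 and 3705 in untreated KO, 831 and 799 in treated WT, and 1934 and 1162 in treated KO. Mrps25, Mrps22 and Mrps31 were likewise highest in untreated KO and lowest in treated WT. The order was not particular to them: the group means of Mrpl48, Mrpl1, Mrpl32 and Mrpl3 followed it too. Those of other members, such as Mrpl33 and Mrps23, did not, and the members with this order were not counted. The part of the oocyte transcripts in the differences of these genes was not tested. In bulk RNA fewer cells of a type and less RNA per cell cannot be told apart. Oaz3, a testis-expressed gene that overlaps Mrpl9 head to head, was under 0.6 FPKM in every library. Tdrkh, a germline Tudor protein gene near Mrpl9, was 3.10 and 4.38 FPKM in untreated WT, 6.81 and 5.74 in untreated KO, 2.67 and 1.85 in treated WT, and 3.50 and 2.47 in treated KO. These neighbours were looked up after the Mrpl9 values were seen.

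The genes next to Mrpl9 in the higher direction at 0 h were Mrps25 (0.25, SE 0.165) and Mrps22 (0.24, SE 0.157), both without overlap between genotypes and neither called (limma adjusted p = 0.712 and 0.717). In the lower direction stood Mrpl36, Mrps6 and Mrpl49. Mrpl36, a very small protein whose bacterial counterpart binds zinc, was 132 and 122 FPKM in untreated WT against 134 and 152 in treated WT, and 92.3 and 109 in untreated KO against 96.0 and 106 in treated KO. All 4 KO libraries lay below all 4 WT libraries. The differences were -0.34 at 0 h (SE 0.156, adjusted p = 0.555) and -0.49 at 44 h (SE 0.156, adjusted p = 0.494). Mrpl36 overlaps Ndufs6 head to head, a gene of respiratory complex I whose genotype ranges overlapped at both times.

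Mrps6, on the platform of the small subunit, was 85.6 and 78.7 FPKM in untreated WT against 71.8 and 78.1 in treated WT, and 45.1 and 77.2 in untreated KO against 46.6 and 56.4 in treated KO. KO lay below WT at both times, but at 0 h KO replicate 2, at 77.2, was close to WT replicate 2, at 78.7. Its differences were -0.47 and -0.54 (SE 0.252, limma adjusted p = 0.620 and 0.538). Slc5a3, which overlaps Mrps6, was at 0.857 to 2.90 FPKM. Mrpl49, a mitochondria-specific large subunit protein, was 50.5 and 41.7 FPKM in WT without PMSG and 29.5 and 43.7 in KO, where the genotypes overlapped. After PMSG both KO values, 22.2 and 32.3, lay below the WT values of 35.7 and 39.3.

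At 44 h the smallest p in the lower direction belonged to Mrps23, Mrpl36 and Mrpl53. Mrpl53, a mitochondria-specific protein, was 227 and 235 FPKM in WT and 142 and 207 in KO (-0.43, SE 0.200, limma adjusted p = 0.538). In the higher direction they belonged to Mrps31 (0.39, SE 0.160, adjusted p = 0.506), Mrps2 (0.29) and Mrpl47 (0.34). Without the library labelled KO 44 h replicate 1 those differences were 0.22, 0.13 and 0.06, and that of Mrpl53 was -0.16. Without replicate 2 they were 0.57, 0.44 and 0.63, with -0.70 for Mrpl53. In Mrps31 the KO values of 50.4 and 39.5 FPKM lay above the WT values of 34.1 and 33.3. Genotype differences at 0 h and at 44 h, which share no library, had the same sign for 54 of 76 genes (71.1%), against 68.4% of all genes. Pearson's r was 0.65 and rho 0.63 over the family, against 0.32 and 0.53 over all genes.

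The spread between replicates exceeded the family's median differences between groups as deposited. Within groups the median difference of replicate 1 from replicate 2 was 0.10 in untreated WT (55 of 76 higher), -0.19 in treated WT (12 higher), -0.13 in untreated KO (14 higher) and 0.20 in treated KO (55 higher). In KO at 44 h the genes most above in replicate 1 were Mrpl52 (0.80), Mrps18b (0.72), Mrps9 (0.72), Mrpl2 (0.72) and Mrps35 (0.70). Mrpl2 is the counterpart of a conserved bacterial protein beside the peptidyl transferase centre. The genes most below were Mrpl53 (-0.54), Mrpl49 (-0.52), Mrpl45 (-0.49), Mrps6 (-0.27) and Mrpl39 (-0.23). Mrpl45 lies at the tunnel exit, facing the inner membrane. Both directions thus occurred in 1 pair of libraries, while cytosolic ribosomal protein genes were nearly all higher in replicate 1.

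**Figure D4:**
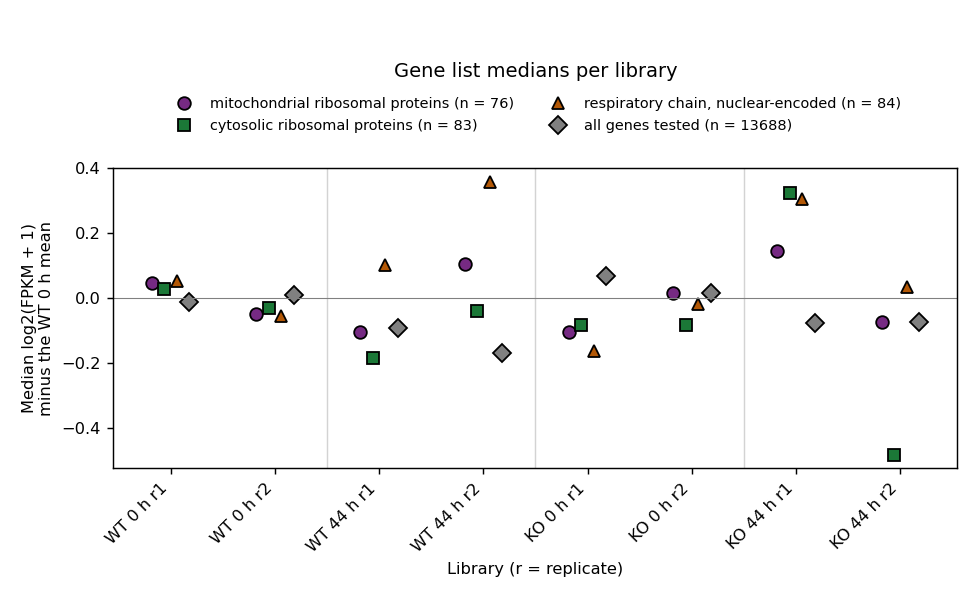
Median of log2(FPKM + 1) minus the WT 0 h mean in each library, for the mitochondrial ribosomal protein genes, the cytosolic ribosomal protein genes, nuclear-encoded respiratory chain genes and all genes tested. The mitochondrial ribosomal genes stay between -0.10 and 0.14, while the cytosolic ones are at 0.32 and -0.48 in the KO 44 h libraries and the respiratory chain genes at 0.36 in WT 44 h replicate 2.

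The mitochondrial ribosome makes core subunits of the respiratory chain, whose other subunits are nuclear-encoded. Of 84 nuclear-encoded respiratory chain genes tested, a list that includes ATP synthase genes, 75 lay higher at 44 h in WT (median 0.23) and 75 in KO (median 0.27). Limma called 0 of them, and 14 and 11 had an unadjusted p under 0.05, where 3301 and 2884 of all 13688 genes did. The family's own medians were 0.01 and 0.06, and the difference between the lists was not tested. The respiratory chain medians stayed above 0 with either scaling: 0.13 and 0.16 after quantile normalization and 0.37 and 0.43 by the median of ratios. Without the library labelled KO 44 h replicate 1 the KO median was 0.12. Replicate 1 differed from replicate 2 by a median of -0.29 in treated WT and 0.28 in treated KO, at least as much as the list's differences after PMSG. Relative to untreated WT the list's medians were 0.10 and 0.36 in the treated WT libraries. Cytosolic ribosomal protein genes had medians of -0.12 in WT (15 of 83 higher) and -0.02 in KO (35 higher). Limma called 0 of them, and 2 and 3 had an unadjusted p under 0.05. Their medians turned to 0.02 and 0.14 by the median of ratios, and the KO median was -0.40 without replicate 1 and 0.39 without replicate 2.

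Other genes of mitochondrial translation were read in 5 lists, and limma called 0 of them in each of the 5 comparisons. At an unadjusted p under 0.05 each list had between 0 and 4 genes in a comparison, the 4 being assembly genes in KO against WT at 44 h. The list medians of KO against WT were -0.07 to 0.06 at 0 h and -0.12 to 0.25 at 44 h. The 0.25 was that of the regulators of biogenesis, a list with several genes near 1 FPKM, named below. Of 7 ribosomal proteins filed under other symbols, 4 lay higher after PMSG in each genotype (medians 0.02 and 0.08). The medians were -0.04 and 0.04 after quantile normalization and 0.16 and 0.23 by the median of ratios. Mrp63, a large subunit protein, was 30.9 and 27.2 FPKM in untreated WT against 40.7 and 50.4 in treated WT, and 26.7 and 32.8 in untreated KO against 46.1 and 37.3 in treated KO. Times did not overlap in either genotype (0.62, limma adjusted p = 0.130, and 0.47, adjusted p = 0.224). Ptcd3, a pentatricopeptide protein of the small subunit, differed by -0.32 in WT.

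Of 14 translation factors, 2 lay higher after PMSG in WT (median -0.07) and 3 in KO (median -0.17), and the WT median turned to 0.05 after quantile normalization and 0.06 by the median of ratios. The KO median was -0.01 and -0.02 under those scalings, with 7 of 14 higher in each. Gfm2, a factor that splits spent ribosomes, differed by -0.68 in KO (SE 0.295, limma adjusted p = 0.245), and Mtrf1l, a release factor, by -0.45 in both genotypes. Of 21 assembly and rRNA modification genes, 6 and 5 lay higher (medians -0.14 and -0.21), and the medians were -0.05 and -0.09 after quantile normalization and 0.00 and -0.07 by the median of ratios. Mpv17l2, an inner membrane protein that takes part in ribosome assembly, was 64.6 and 52.0 FPKM in untreated WT against 113 and 147 in treated WT, and 57.5 and 59.7 in untreated KO against 73.9 and 87.1 in treated KO. Like Mrps23 it stood above its 0 h libraries in both genotypes and highest in treated WT. Its differences were 1.14 in WT (SE 0.190, adjusted p = 0.0776) and 0.45 in KO (adjusted p = 0.237), and their difference was -0.69 (adjusted p = 0.9999). Mterfd2, the assembly factor also named MTERF4, differed by -0.75 in WT (adjusted p = 0.102) and -0.71 in KO (adjusted p = 0.113).

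Of 10 genes of mitochondrial transcription and DNA maintenance, 2 lay higher in WT (median -0.22) and 3 in KO (median -0.26). The medians were -0.15 and -0.11 after quantile normalization and -0.08 and -0.12 by the median of ratios. Lrpprc, which stabilises mitochondrial mRNA, differed by -0.55 in KO (SE 0.162, limma adjusted p = 0.139), and Polg, the catalytic subunit of the mitochondrial DNA polymerase, by -0.66 in WT (adjusted p = 0.148). Of 11 regulators of mitochondrial biogenesis, 1 lay higher in WT (median -0.28) and 2 in KO (median -0.11). Their WT medians were -0.21 and -0.22 with the respective scalings, and their KO medians -0.08 and -0.03. Ppargc1b, Esrra, Esrrb, Esrrg and Gabpb2 in that list lay near the filter, with means of 0.765 to 1.35 FPKM. Gabpb1, a subunit of the ETS-type factor GABP, was 38.4 and 39.4 FPKM in untreated WT against 28.8 and 26.9 in treated WT, and 39.0 and 44.1 in untreated KO against 36.4 and 32.7 in treated KO. It differed by -0.47 in WT (adjusted p = 0.131) and -0.26 in KO. Nrf1, nuclear respiratory factor, differed by -0.45 in WT (adjusted p = 0.181).

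The genes shared features that expression did not define. They lay on 17 chromosomes, with 10 on chromosome 11. Another protein-coding gene faced the member head to head within 1000 bases for 32 of 76 (42.1%), against 15.4% of 11730 protein-coding genes tested and found in the annotation. For 26 of 76 (34.2%) another protein-coding gene overlapped the member, against 24.6%. Mrps11 with Mrpl46, Mrpl27 with Eme1, Mrpl36 with Ndufs6 and Mrpl9 with Oaz3 are such head-to-head pairs.

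Promoter windows of 300 bases, from 250 before to 50 after the start, were found in RefSeq for 67 of 76 genes (73 promoters). The ETS motif shown in capitals for Mrpl27 occurred in 32.9% of them, against 16.1% of the 12259 promoters of genes tested and 8.86% of all 32851 promoters. The YY1 motif occurred in 17.8%, against 6.79% and 6.34%, and the NRF1 motif in 11.0%, against 6.53% and 3.91%. Of 8 genes with the NRF1 motif, 7 were of the large subunit, which held 41 of the 67 genes with a promoter. Mrps23 held the ETS motif in its window, outside the stretch printed above. Of the other motifs searched, CCAAT occurred in 41.1% against 38.0%, the GC box GGGCGG in 52.1% against 59.6%, the E-box CACGTG in 9.59% against 9.75%, TATAAA in 6.85% against 7.82%, the full cAMP response element TGACGTCA in 2.74% against 2.92%, and AAGGTCA, the letters of NR5A receptors, in 5.48% against 3.37%. These shares count windows, and the overlapping windows of Mrpl2 each count. By gene, CCAAT alone changed direction, at 40.3% against 43.2% of genes tested, and the E-box was at 7.46% against 11.6%. The ETS, YY1 and NRF1 shares by gene were 35.8% against 18.8%, 19.4% against 8.16% and 11.9% against 7.72%. Both strands were searched, and a match is only a run of letters. The median GC content was 58.3% for the family and 60.0% for the promoters of genes tested.

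**Figure D5:**
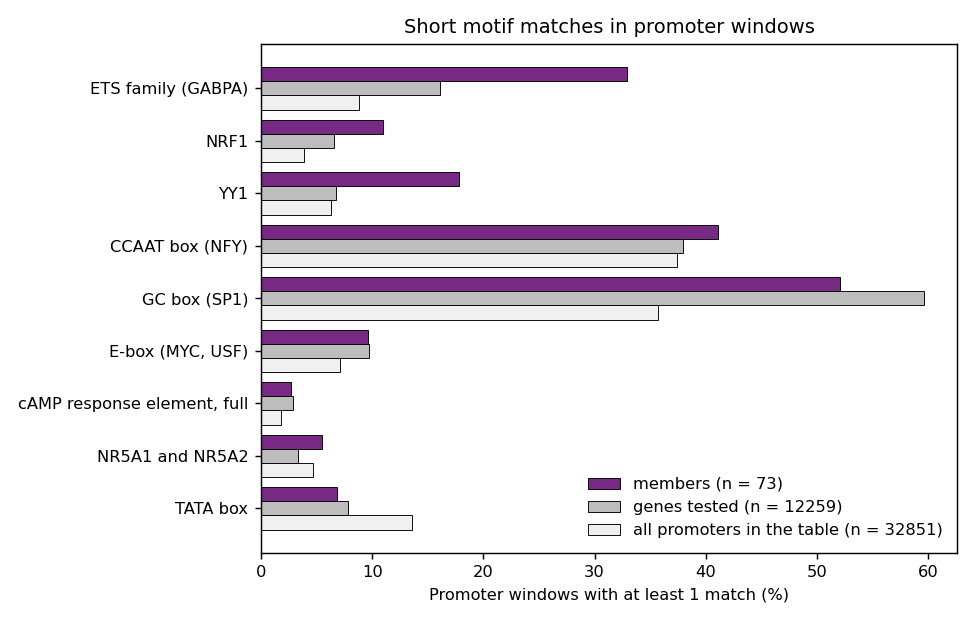
Share of promoter windows with at least 1 match to each motif on either strand, in percent, for the mitochondrial ribosomal protein genes (73 promoters), the genes tested (12259) and all promoters in the table (32851). The bars for the ETS family (32.9% against 16.1%), YY1 (17.8% against 6.79%) and NRF1 (11.0% against 6.53%) are longer for the family than for the genes tested, and the bar for the GC box is shorter.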

How the data were processed

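RNA was measured in 8 libraries of mouse granulosa cells. The authors deposited 1 table of FPKM values with a column for each library (per the file headers). The tools TopHat2 (2.1.1) and Cufflinks (2.2.1) and the build mm9 come from the submitters' processing notes, which as given here assign them no roles; the annotation is not given in the sources used here. FPKM carry no counts, so no count model was used. Genes with at least 1 FPKM in at least 2 libraries were kept (13688 of 23235), and log2(FPKM + 1) was fitted with limma 3.58.1 in R 4.3.3 (group means, mean-variance trend, 4 residual degrees of freedom, two-sided). P-values were adjusted over all genes within each of 5 comparisons. The log2(FPKM + 1) scale understates differences of low genes. The scripts were tested on simulated data. Relative depth was read from the steps between low FPKM values. Positions, overlaps and coding lengths came from GENCODE M21 and promoters from RefSeq, both on GRCm38 and not on mm9, so no gene coordinates other than those of the promoter windows are given.

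The members and lists were chosen with earlier results of these data known. Named were, per comparison, called genes and the 3 smallest p in each direction, the 5 highest and 5 lowest mean levels, the 5 genes furthest apart in each direction between the KO 44 h libraries, the Mrps18 paralogs, and the 2 smallest p of each pathway list. Alternatives covered the pseudocount, the filter, scaling, a replicate block, the groups fitted, a robust version of the moderation and fits without 1 library at a time.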

Additional observations from a re-analysis of the deposited data

How the results depend on the processing

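Over 17 alternative settings, 657 of 672 values kept their side of the threshold or stayed within the spread between replicates. None turned the direction of a named gene's difference. For the family's medians that spread was 0.125, larger than each of them in the fit of all libraries, so a median could change sign within it. The counts of genes called were 0 in that fit and could only stay or rise. The tally therefore says little about the family's medians and counts. The family's genotype medians as deposited, near 0, changed sign with single libraries left out, as given with the results. The one at 44 h also did after quantile normalization (0.00). By the median of ratios they stayed below 0, at -0.13 at 0 h and -0.08 at 44 h. Scaling by the median of ratios moved the family's median after PMSG to 0.15 in WT and 0.21 in KO. When each library was left out in turn, the family's KO median after PMSG ranged from -0.064 to 0.19, the number of genes called after PMSG from 0 to 3 in WT and from 0 to 1 in KO. Fitting only the groups compared gave 1 called gene in WT. The other fits of the pseudocount, the filter, quantile normalization and robust empirical Bayes called 0 of 76 genes. The replicate block called 0 genes. It could not move the medians (-0.05 between genotypes at 0 h with the block), because every group held both replicate numbers. The replicate numbers did not pair the libraries: the correlations of same-numbered deviations were -0.113 to -0.007. With 2 libraries a group, a p above the threshold does not show equal levels. FPKM give no counts, so counting error is unknown.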
